A study of Homo sapiens with 6 samples.

Results

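H460 cells are an established human line derived from a lung carcinoma of the large cell type. RNA was sequenced from 3 control libraries and from 3 libraries of cells given 20 µM fluoxetine, a selective serotonin reuptake inhibitor, for 24 h. Both groups were the same wild-type line, grown in medium with fetal bovine serum, and the labels name no other agent and no vehicle. With 1 line and 1 dose, the values describe H460 cells at that dose only. The labels do not say whether the libraries of a group came from separate cultures, so p-values cover the spread between these libraries, which may be technical. This text describes the 10 genes SPTLC1, SPTLC2, KDSR, CERS2, CERS5, CERS6, DEGS1, SGMS1, SGMS2 and UGCG, found by symbol in the deposited table of read counts, which holds 31762 genes. They were chosen for their place in the synthesis of ceramide and its first products and not by a rule on their measured values. Earlier results of these data were known when these genes and the lists below were chosen. Each symbol matched exactly 1 row. All 10 passed the filter on low counts.

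Ceramide is built at the endoplasmic reticulum. Serine palmitoyltransferase joins serine to palmitoyl-CoA, KDSR reduces the product, ceramide synthases attach a fatty acid, and DEGS1 introduces the double bond that turns dihydroceramide into ceramide. At the Golgi, sphingomyelin synthases pass a phosphocholine head group to ceramide, and UGCG attaches glucose to it, the first step of the glycosphingolipids. Fluoxetine belongs to the cationic amphiphilic drugs, which collect in lysosomes, and it is known to inhibit acid sphingomyelinase, the lysosomal enzyme that releases ceramide from sphingomyelin.

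After fluoxetine treatment, transcripts of 3 of the 10 genes were upregulated and 1 was downregulated by edgeR's quasi-likelihood test (adjusted p under 0.05). In bulk RNA a change in the make-up of the culture and a change in RNA per cell cannot be told apart. UGCG rose most, by 0.92 on the log2 scale, followed by KDSR at 0.58 and SPTLC2 at 0.56, while DEGS1 fell by 0.25. Among all 15646 tested genes, 7.76% were called higher and 5.32% lower at the same threshold, which is 1214 and 833 genes, against 1106 and 1140 with DESeq2. With a fold change of at least 2, as used in the study, 0 of the 10 genes passed, against 1.39% of all tested genes. That count was also 0 with an unadjusted p under 0.05, with DESeq2 and with limma-voom. The median log2 fold change of the 10 genes was 0.10, against 0.03 for all tested genes, and 5 of the 10 were higher and 5 lower. Fluoxetine and control libraries did not overlap for 5 of the 10 genes, against 31.9% of all tested genes. Without control replicate 3, 5 of the 10 genes were called higher, and the higher calls over all tested genes also rose, from 1214 to 1627. Without control replicate 1 the median of the 10 genes was -0.02.

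**Figure D1:**
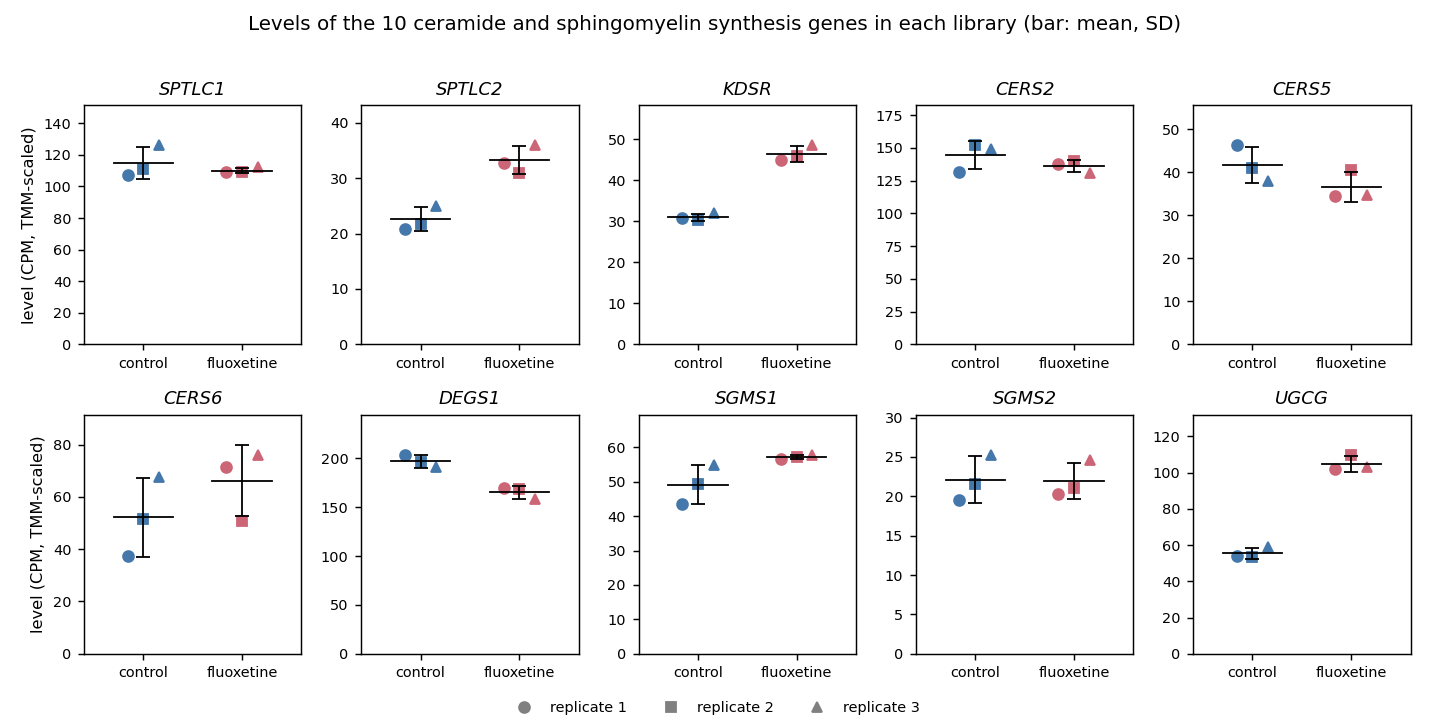
Level of each gene in each library, in CPM (counts scaled to the TMM-normalized library size), with circle, square and triangle for replicates 1, 2 and 3, a line for the group mean and a bar for the SD. UGCG, KDSR, SPTLC2 and SGMS1 lay higher in every fluoxetine library than in every control library, DEGS1 lay lower, and the groups overlapped for the other 5 genes.

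The libraries held between 16157507 and 27823667 counted reads, and depth was lower in all fluoxetine than in all control libraries. The part of depth in the results was not tested. At these depths 3 counts, the limit that a count of 0 allows, were worth 0.108 to 0.186 CPM, and the limit covers counting error alone. The lowest count of any of the 10 genes was 334. Control replicate 3 stood furthest from the rest of its group, since its chi-square over genes was 12.4 and 21.7 per degree of freedom against the others, which gave 5.63 between themselves. It had the highest level of its group for 7 of the 10 genes. Of the markers of the labelled carcinoma, KRT8, KRT18 and KRT19 were abundant in all libraries, with KRT18 lower after treatment (log2 fold change -0.72, edgeR adjusted p = 0.00162), whereas EPCAM and CDH1 were at or near 0, with mean levels of at most 0.414 CPM. The measured markers of lung epithelium summed to at most 0.684 CPM in any library, those of leukocytes to at most 0.104 CPM and those of endothelium to at most 0.182 CPM. The 5 fibroblast markers summed to 25.2 to 28.4 CPM, and 3 of them passed the filter and were tested. Of these 3, LUM was called higher (log2 fold change 0.88) and COL3A1 lower (-0.53). Over all tested genes, 13.1% were called in either direction. The part of these markers in the results was not tested.

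The sequence before the start of each gene was taken from RefSeq (GRCh38.p14), which held 9 of the 10 genes, all but CERS2. The 110 bases upstream of the start are shown for the 4 called genes, 5′ to 3′ on the strand of the gene, at chr14:77616638-77616747 (minus strand), chr18:63367207-63367316 (minus strand), chr9:111896704-111896813 (plus strand) and chr1:224183130-224183239 (plus strand). Capitals mark GC boxes, read as GGGCGG on either strand, and CCAAT boxes, read as CCAAT on either strand. The RefSeq starts of all 4 genes lie inside the intervals that the deposited table gives for them. The bases shown for SPTLC2, KDSR and DEGS1 lie wholly inside these intervals, and those for UGCG lie partly inside. The sequences show where such boxes lie in the genes that changed.
SPTLC2: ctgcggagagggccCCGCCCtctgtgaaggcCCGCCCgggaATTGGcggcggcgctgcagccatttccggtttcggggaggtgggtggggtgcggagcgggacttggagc
KDSR: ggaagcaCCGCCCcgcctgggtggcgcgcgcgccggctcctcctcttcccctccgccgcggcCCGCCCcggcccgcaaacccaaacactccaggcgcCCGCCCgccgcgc
UGCG: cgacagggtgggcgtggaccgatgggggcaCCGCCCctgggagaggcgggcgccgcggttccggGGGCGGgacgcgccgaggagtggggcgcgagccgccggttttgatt
DEGS1: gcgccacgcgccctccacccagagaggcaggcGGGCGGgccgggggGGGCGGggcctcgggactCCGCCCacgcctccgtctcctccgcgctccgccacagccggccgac

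In the window from 250 bases before to 50 bases after the start, 8 of the 9 genes held a GC box, against 69.7% of the 10195 tested genes with such a window. The exception was SGMS2. A CCAAT box was present in SPTLC2 and CERS6, against 36.2% of tested genes. Letters of the E-box (CACGTG), of the longer CLEAR-type element of lysosomal genes that contains it (TCACGTG), of the sterol regulatory type (TCACNCCAC) and of the amino acid response type (TGATGNAAT) were searched on both strands and were in none of the 9 windows. These motifs were in 10.2%, 5.90%, 1.07% and 0.432% of the windows of tested genes. GC content of the windows was between 57.7% (SPTLC1) and 79% (UGCG), with a median of 65.3% over tested genes.

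Serine palmitoyltransferase catalyses the committed first step and works as a complex of SPTLC1, which carries no catalytic site, with SPTLC2 or SPTLC3. SPTLC2 (ENSG00000100596) was placed by the deposited table on chromosome 14 (77505997 to 77616773, minus strand). Positions of all genes are those of the table, whose build was not stated and which mostly matched GRCh38. SPTLC2 stood at 20.9, 21.8 and 25 CPM in control replicates 1, 2 and 3, and 32.8, 30.9 and 35.9 CPM in fluoxetine replicates 1, 2 and 3. Every fluoxetine library was above every control library. Mean levels were 22.6 ± 2.14 CPM in control and 33.2 ± 2.53 CPM in treated cells (SD, n = 3 each), with a log2 fold change of 0.56 ± 0.11 (SE, edgeR adjusted p = 0.00820). The call was lost without control replicate 2 (adjusted p = 0.0614) and without fluoxetine replicate 1 (adjusted p = 0.0573).

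SPTLC1 (ENSG00000090054, chromosome 9, 92031999 to 92115384, minus strand) had levels of 107, 111 and 126 CPM in the control libraries and 109, 109 and 112 CPM in the fluoxetine libraries, so the groups overlapped. The log2 fold change was -0.06 ± 0.08 (SE, edgeR adjusted p = 0.651). The balance between SPTLC2 and SPTLC1 was compared within each library, where library size cancels. The log2 ratio of SPTLC2 to SPTLC1 reads was -2.35, -2.35 and -2.33 in the control libraries and -1.73, -1.81 and -1.65 in the fluoxetine libraries. Control libraries thus held nearly one ratio, and all fluoxetine libraries lay above it. The difference of the means was 0.62, a 1.53-fold rise of the ratio (two-sided exact permutation test, p = 0.1, adjusted p = 0.167 over 5 ratios). With 3 libraries per group this test cannot give a p below 0.1. SPTLC3, the other partner of SPTLC1, was not part of this ratio, so the ratio does not describe the whole enzyme. Mean levels of SPTLC3 were 54.4 CPM in control and 57.5 CPM in treated cells, above those of SPTLC2 before any scaling to length. Its log2 fold change was 0.08 (edgeR adjusted p = 0.556).

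KDSR encodes the reductase that turns 3-ketodihydrosphingosine into dihydrosphingosine, the second step. The gene (ENSG00000119537, chromosome 18, 63327726 to 63367510, minus strand) stood at 30.8, 30.3 and 31.9 CPM in control cells and 44.9, 45.8 and 48.5 CPM after fluoxetine treatment. Libraries of a group were close to each other, and the groups were clearly separate. Mean levels were 31.0 ± 0.806 CPM in control and 46.4 ± 1.86 CPM in treated cells (SD, n = 3 each), with a log2 fold change of 0.58 ± 0.08 (SE, edgeR adjusted p = 0.00198). KDSR remained called in 13 of 13 alternative analyses, with log2 fold changes between 0.53 and 0.60.

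Ceramide synthases differ in the length of the fatty acid they attach. CERS2 prefers very long chains, and CERS5 and CERS6 prefer palmitoyl-CoA. None of the 3 genes passed the adjusted threshold in edgeR, and 0 of them had an unadjusted p under 0.05. CERS2 (ENSG00000143418, chromosome 1, 150960583 to 150975004, minus strand) had levels of 132, 152 and 149 CPM in the control libraries and 138, 140 and 131 CPM in the fluoxetine libraries. Its log2 fold change was -0.08 ± 0.08 (SE, edgeR adjusted p = 0.535). CERS2 shares 948 exonic bases with SETDB1 on the other strand, which had a mean count of 496.5 per library against 2809 for CERS2, so part of its count is uncertain if the counting did not use strand.

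CERS5 (ENSG00000139624, chromosome 12, 50129306 to 50167533, minus strand) had levels of 46.3, 41.1 and 38 CPM in the control libraries and 34.5, 40.6 and 34.7 CPM in the fluoxetine libraries. The groups overlapped, and the log2 fold change was -0.19 ± 0.11 (SE, edgeR adjusted p = 0.272). CERS6 (ENSG00000172292, chromosome 2, 168455862 to 168775137, plus strand) had levels of 37.3, 51.7 and 67.6 CPM in the control libraries and 71.5, 50.7 and 76.2 CPM in the fluoxetine libraries. It varied more between replicates than any of the other 9 genes, with a coefficient of variation of 29.1% in control and 20.5% in fluoxetine libraries. Its log2 fold change was 0.34 ± 0.20 (SE, edgeR adjusted p = 0.307), and without control replicate 3, the highest control library, it was 0.54 (adjusted p = 0.0343). The log2 ratio of CERS6 to CERS2 reads was -1.51 ± 0.35 (SD, n = 3) in control and -1.07 ± 0.35 (SD, n = 3) in fluoxetine libraries. The groups overlapped, with a difference of 0.44 (two-sided exact permutation test, p = 0.2, adjusted p = 0.25). That of CERS5 to CERS2 differed by -0.11 (exact permutation test, p = 0.6, adjusted p = 0.6). CERS6 shares 2999 of its 7241 merged exonic bases with CERS6-AS1 on the other strand, which had a mean count of 0.2 per library. If the counting did not use strand, the treatment of reads in these bases is not known. The level of CERS6 per kilobase and its share of the ceramide synthases are then uncertain.

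DEGS1 encodes the desaturase that completes ceramide. The gene (ENSG00000143753, chromosome 1, 224175756 to 224193441, plus strand) stood at 204, 196 and 191 CPM in the control libraries and 170, 169 and 158 CPM in the fluoxetine libraries. Every fluoxetine library was below every control library. Mean levels were 197 ± 6.70 CPM in control and 166 ± 6.66 CPM in treated cells (SD, n = 3 each), with a log2 fold change of -0.25 ± 0.07 (SE, edgeR adjusted p = 0.0381). The adjusted p lay close to the threshold. With library size as the only normalization it was 0.0503, and without control replicate 1, control replicate 2, fluoxetine replicate 1 or fluoxetine replicate 3 it lay between 0.0700 and 0.157, so the call was lost in these 5 analyses.

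SGMS1 and SGMS2 encode the sphingomyelin synthases, of which SGMS1 is known as the Golgi enzyme and SGMS2 as an enzyme of the Golgi and the plasma membrane. SGMS1 (ENSG00000198964, chromosome 10, 50305586 to 50625163, minus strand) had levels of 43.4, 49.4 and 54.8 CPM in the control libraries and 56.7, 57.2 and 57.9 CPM in the fluoxetine libraries. The groups did not overlap, but the log2 fold change of 0.22 ± 0.10 (SE) did not pass the threshold (edgeR adjusted p = 0.163). Without control replicate 3 it was 0.27 (adjusted p = 0.0445). The antisense gene SGMS1-AS1 shares 207 exonic bases with SGMS1, with a mean count of 61.8 against 1052.

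SGMS2 (ENSG00000164023, chromosome 4, 107824563 to 107915047, plus strand) had levels of 19.5, 21.6 and 25.3 CPM in the control libraries and 20.3, 21.1 and 24.6 CPM in the fluoxetine libraries. The groups overlapped throughout, and the log2 fold change was -0.01 ± 0.13 (SE, edgeR adjusted p = 0.975). The log2 ratio of SGMS2 to SGMS1 reads was -1.16, -1.19 and -1.11 in control and -1.48, -1.44 and -1.24 in fluoxetine libraries. Every fluoxetine library was below every control library, with a difference of -0.23 (two-sided exact permutation test, p = 0.1, adjusted p = 0.167). The antisense gene AC096564.1 shares 600 exonic bases with SGMS2, with a mean count of 0.7, so the same limit on strand holds for SGMS2.

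UGCG encodes glucosylceramide synthase, which opens the branch to glucosylceramide, lactosylceramide and gangliosides. The gene (ENSG00000148154, chromosome 9, 111896766 to 111935369, plus strand) had 1189, 1026 and 1633 reads in the control libraries, and 1673, 1851 and 1768 reads in the shallower fluoxetine libraries. Scaled to library size, these were 53.9, 53.5 and 58.8 CPM in the control libraries and 102, 110 and 103 CPM in the fluoxetine libraries. The lowest fluoxetine library was far above the highest control library. Mean levels were 55.4 ± 2.97 CPM in control and 105 ± 4.57 CPM in treated cells (SD, n = 3 each), with a log2 fold change of 0.92 ± 0.08 (SE, edgeR adjusted p = 5.84e-05). This is 1.89-fold, just under the minimum fold change of 2. UGCG was called in 13 of 13 alternative analyses, with log2 fold changes between 0.85 and 0.94.

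The branch point was compared as the log2 ratio of UGCG reads to SGMS1 plus SGMS2 reads. It was -0.22, -0.41 and -0.44 in the control libraries and 0.40, 0.49 and 0.32 in the fluoxetine libraries. UGCG thus had fewer reads than both sphingomyelin synthases together in every control library and more in every fluoxetine library. The ratio of reads went from 0.780 to 1.32, a difference of 0.76 on the log2 scale (two-sided exact permutation test, p = 0.1, adjusted p = 0.167). Longer transcripts yield more reads, so the ratio compares libraries and not the genes.

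**Figure D2:**
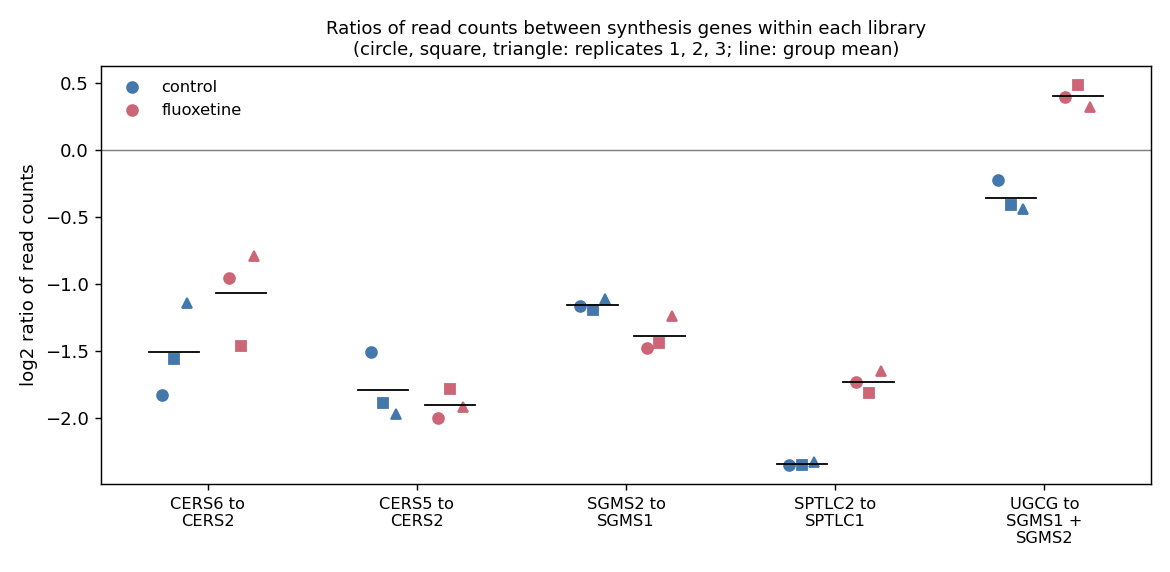
Log2 ratio of read counts between synthesis genes within each of the 6 libraries, in control (blue) and fluoxetine (red), with a line for the group mean. The mean ratio of SPTLC2 to SPTLC1 was -2.35 in control and -1.73 in fluoxetine, and that of UGCG to the sphingomyelin synthases -0.36 and 0.40. That of SGMS2 to SGMS1 was -1.15 and -1.39. Groups did not overlap for these ratios, each with an adjusted p of 0.167 (exact permutation test), whereas the ratios of CERS6 and CERS5 to CERS2 overlapped.

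Levels of different genes were compared per kilobase of exon, with all annotated exons of a gene merged. In control cells DEGS1 was highest at 78.3 ± 2.66 CPM per kilobase (SD, n = 3). It was followed by CERS2 at 31.1 ± 2.32, SPTLC1 at 17.7 ± 1.53 and UGCG at 12 ± 0.645 CPM per kilobase, and the ranges of these 4 genes did not overlap. SGMS1 (6.74 to 8.52), CERS6 (5.15 to 9.34) and CERS5 (5.64 to 6.85) could not be ordered beyond their spread in control libraries. KDSR at 3.33 ± 0.0865 and SGMS2 at 2.90 ± 0.387 overlapped, as did SGMS2 and SPTLC2, which was lowest at 2.47 ± 0.234 CPM per kilobase. After fluoxetine treatment UGCG, at 22.7 ± 0.991 CPM per kilobase, lay above SPTLC1 at 17.0 ± 0.330, with no overlap. This order depended on the length used. With the longest annotated transcript as length, UGCG at 26.2 stayed below SPTLC1 at 36.9 CPM per kilobase.

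**Figure D3:**
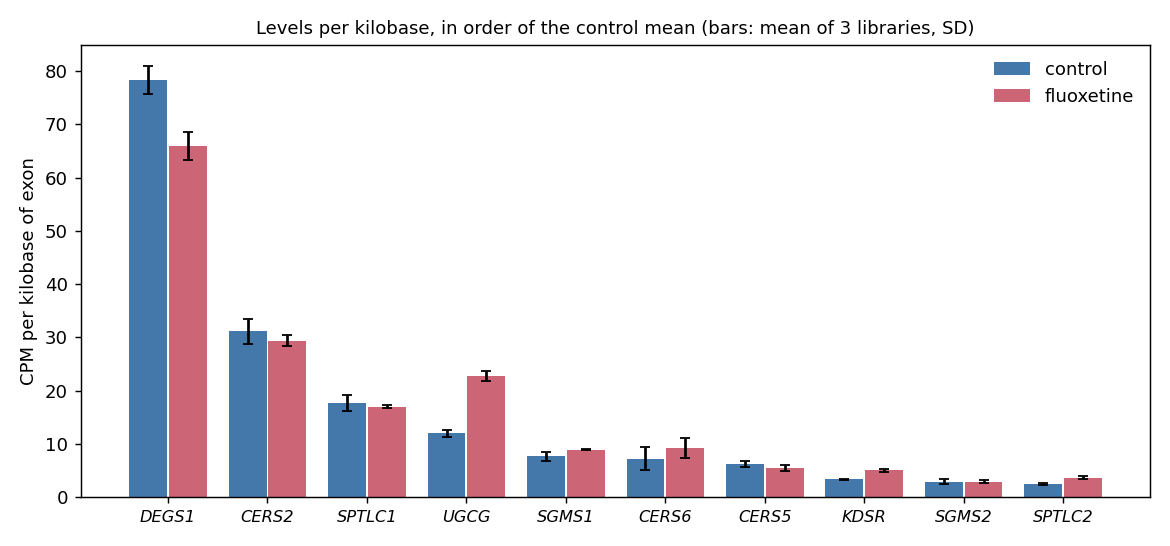
Level of each gene in CPM per kilobase of merged exons in control (blue) and fluoxetine (red) cells, in order of the control mean, with bars for the mean of 3 libraries and error bars for the SD. DEGS1 was highest in both groups, and UGCG went from the fourth to the third place, from 12 to 22.7 (with merged exons, not with the longest transcript as length).

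Within each enzyme family, shares were computed on the same scale. CERS2 made up 69.9% ± 1.56 (SD, n = 3) of the transcripts of the 3 ceramide synthases in control and 66.9% ± 2.76 (SD, n = 3) in fluoxetine libraries. CERS6 held 12.7%, 15.5% and 19.8% in the control libraries and 22.1%, 16.2% and 23.9% in the fluoxetine libraries, with overlap. SGMS1 held 72.6% ± 0.557 (SD, n = 3) of the sphingomyelin synthase transcripts in control and 75.6% ± 1.71 (SD, n = 3) in fluoxetine libraries. SPTLC2 held 12.2%, 12.2% and 12.3% of the sum of SPTLC1 and SPTLC2 in the control libraries and 17.6%, 16.8% and 18.5% in the fluoxetine libraries. SPTLC3 was not in this sum, so these are not shares of all subunits. Depth behind each share was at least 334 reads per gene, and shares depend on the length assumed for each gene. With the longest transcript as length, CERS6 held 9.20% ± 2.27 in control and 12.2% ± 2.61 in fluoxetine libraries (SD, n = 3 each), and SPTLC2 held 6.70% ± 0.0512 and 9.92% ± 0.519.

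The regulators of serine palmitoyltransferase and the remaining enzymes of the route were taken from a list of 12 genes. Of these, 9 were tested, SPTSSB did not pass the filter on low counts, and CERS3 and DEGS2 were not found by symbol among the counted genes. FA2H, which hydroxylates the fatty acid of ceramide, was the single gene called, and 0 genes were lower at an unadjusted p under 0.05. The share called, 1 of 9 genes, was near the 13.1% of all tested genes called in either direction. FA2H went from 9, 13 and 17 reads in the control libraries to 24, 23 and 18 in the fluoxetine libraries, a log2 fold change of 1.18 ± 0.32 (SE, edgeR adjusted p = 0.0371). It was not called with DESeq2 or in any of the 6 analyses that left out a library, and a minimum of 10 counts in every library removed it. ORMDL1, ORMDL2 and ORMDL3, the inhibitory subunits that sense sphingolipids, had log2 fold changes of -0.04, 0.11 (-0.06 without fluoxetine replicate 1) and -0.18 with adjusted p-values from edgeR of at least 0.309. SPTSSA, a small activating subunit, and SPTLC3 had log2 fold changes of -0.05 and 0.08. The median of the list was 0.08.

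The list of ceramide transport and downstream synthesis held 16 genes, of which 15 were tested and GAL3ST1 did not pass the filter. 2 genes were called, COL4A3BP and B4GALT6, both higher, and with DESeq2 and limma-voom the count was also 2. This is 2 of 15 genes, beside 13.1% of all tested genes called in either direction, so the share called was near that of all genes. COL4A3BP encodes the ceramide transfer protein CERT, which carries ceramide from the endoplasmic reticulum to the Golgi for sphingomyelin synthesis. Its level was 23.6, 26.2 and 27.5 CPM in the control libraries and 44.7, 48.3 and 47.0 CPM in the fluoxetine libraries. All fluoxetine libraries lay far above the control libraries, with a log2 fold change of 0.86 ± 0.09 (SE, edgeR adjusted p = 3.39e-04). B4GALT6, a lactosylceramide synthase that uses the product of UGCG, went from 32.1 ± 2.97 to 42.4 ± 3.46 CPM (SD, n = 3 each), with a log2 fold change of 0.40 ± 0.10 (SE, edgeR adjusted p = 0.0293). B4GALT5, the other lactosylceramide synthase, had a log2 fold change of 0.28 (adjusted p = 0.0591) and CERK, which phosphorylates ceramide, of -0.13 (adjusted p = 0.415), by the same test. COL4A3BP was called in 13 of 13 alternative analyses. B4GALT6 was lost without control replicate 1 or 2 or fluoxetine replicate 1 or 3, with adjusted p-values between 0.0973 and 0.195 from edgeR. B4GALT5 was called without control replicate 3 (edgeR adjusted p = 0.0426), where 3 genes of the list were called higher and 1 lower. The median of the list was 0.07.

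Among 17 tested genes of non-lysosomal sphingolipid breakdown and sphingosine phosphate metabolism, from a list of 20, only PLPP3 was called, a smaller share than the 13.1% of all tested genes called in either direction. ACER1 was not found by symbol among the counted genes, and SMPD3 and MFSD2B did not pass the filter. PLPP3, a lipid phosphatase of the plasma membrane, went from 3.59 ± 0.626 to 5.82 ± 1.11 CPM (SD, n = 3 each), with a log2 fold change of 0.69 ± 0.20 (SE, edgeR adjusted p = 0.0451), and was not called with DESeq2 or limma-voom, nor without control replicate 1 or 2 or fluoxetine replicate 1 or 2. Without control replicate 3, 2 genes of the list were called higher and 1 lower. The median of this list was 0.05.

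A list of lysosomal genes of sphingolipid breakdown, which also held the cholesterol exporters NPC1 and NPC2, was set beside the synthesis genes for comparison. Of 15 tested genes, edgeR called 12 higher, between 8 and 12 when a library was left out, and all 15 had log2 fold changes above 0. The number called lower was 0 with edgeR, DESeq2 and limma-voom, and 0 at an unadjusted p under 0.05. Over all tested genes, edgeR called 7.76% higher, which is 1214 genes, and between 409 and 1627 genes higher when a library was left out. The median log2 fold change of the lysosomal list was 0.44, against 0.10 for the 10 synthesis genes. Without NPC1 and NPC2, 10 of 13 genes were called higher and the median was 0.44. Among those with the smallest p-values were NEU1, a sialidase, with a log2 fold change of 2.07, ASAH1, acid ceramidase, with 1.07, NPC2, a cholesterol carrier, with 1.65, and GM2A, an activator of ganglioside breakdown, with 0.88. SMPD1, which encodes acid sphingomyelinase, had a log2 fold change of 0.38 ± 0.10 (SE, edgeR adjusted p = 0.0311), and its call was lost in each of the 6 analyses that left out a library, with adjusted p-values between 0.0553 and 0.165. ASAH1, which breaks ceramide down, went from 101, 97.6 and 105 CPM in the control libraries to 212, 213 and 214 CPM in the fluoxetine libraries.

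Genes that supply long-chain acyl-CoA, the substrate of serine palmitoyltransferase and of the ceramide synthases, came from a list of 19, of which 16 were tested and ELOVL3, HACD4 and ACSL5 did not pass the filter. 6 of them were upregulated, beside 7.76% of all tested genes called higher. The median log2 fold change was 0.33 over the list, against 0.03 for all tested genes. In the list, the count of genes that were lower at an unadjusted p under 0.05 was 0. The 6 upregulated genes were ACSL1 (1.43), ELOVL6 (1.14), ACSL3 (0.71), HSD17B12 (0.74), ACSL4 (0.62) and ELOVL4 (0.40), all log2 fold changes. Each had an edgeR adjusted p of 0.0282 or less, and ELOVL4 remained called in 1 of the 6 analyses that left out a library, the others in all 6. ELOVL6 lengthens palmitoyl-CoA, and ELOVL1, which makes the very long chains that CERS2 uses, had a log2 fold change of -0.15 (edgeR adjusted p = 0.214). Of the sterol pathway, 16 of 18 synthesis genes were upregulated, 14 of them at least 2-fold, with a median log2 fold change of 1.39. Over all tested genes, 1.39% were called with a fold change of at least 2 in either direction. The comparison between these lists is one of counts and medians and was not tested.

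**Figure D4:**
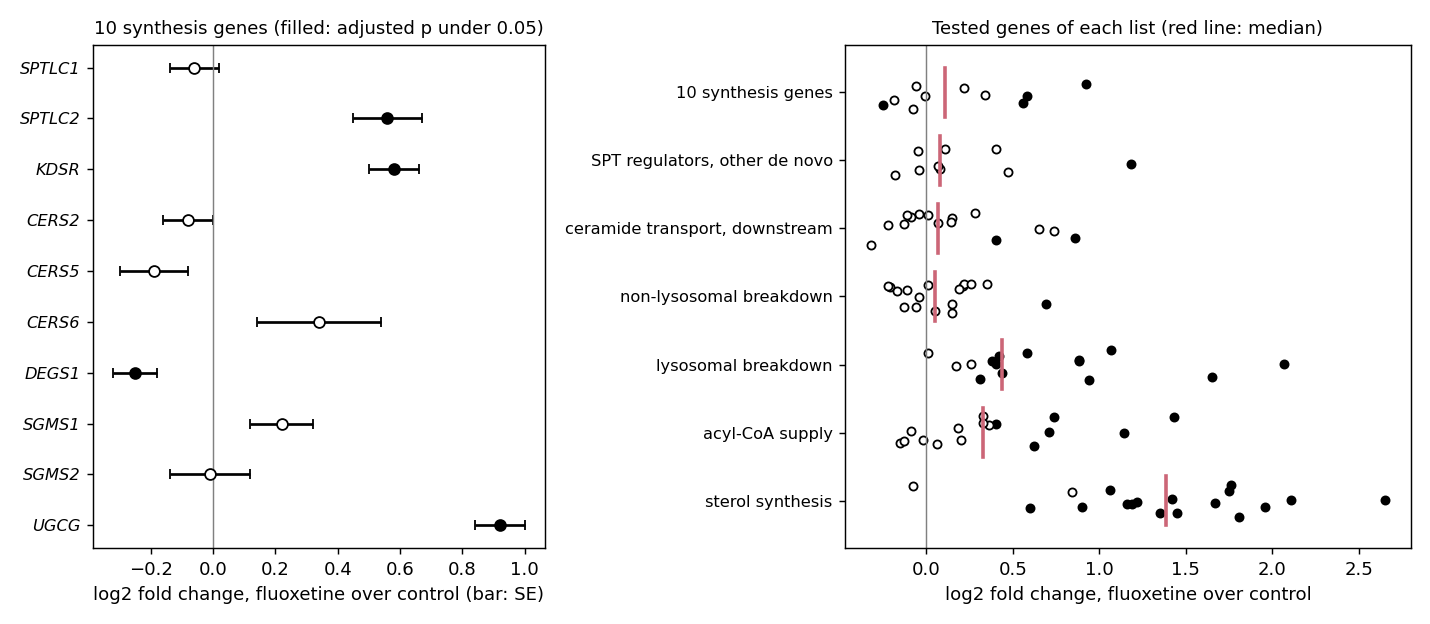
Left, log2 fold change of fluoxetine over control for each of the 10 synthesis genes with its standard error, filled where the adjusted p-value was under 0.05. Right, the tested genes of each list as points, filled by the same rule, with a red line at the median, which was 0.10 for the synthesis genes, 0.44 for lysosomal breakdown and 1.39 for sterol synthesis.

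Of the 10 genes, UGCG had the smallest p-value, and its pattern over the 6 libraries was compared with that of every tested gene by Pearson correlation of log2 CPM. The nearest were IDH1 (r = 0.9982), WLS (r = 0.9976), CD24 (r = 0.9974), ATP6V1C1 (r = 0.9973) and MSMO1 (r = 0.9973). Their log2 fold changes were 0.89, 0.47, 0.50, 1.02 and 2.11. A correlation above 0.99 with UGCG was found for 93 genes. The libraries share their group and their depth in all these pairs, and both enter every such value. With 6 points this describes likeness only.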

How the data were processed

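The authors deposited 1 table of raw read counts per gene for 6 libraries, which were not pooled. The submitters' processing notes name fastp 0.20.0, HISAT2 2.1.0, HTSeq 0.10.0 and DESeq2 1.18.1. The genome build, annotation and use of strand are not given in the sources used here, but start, end and strand equalled those in GENCODE release 29 (GRCh38) for 96.81% of genes found in both. The table also holds the authors' own fold changes and p-values, which were not used. Groups and replicate numbers came from the sample labels.

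Differential expression was computed from the counts with edgeR 4.0.16 under R 4.3.3 (filterByExpr, TMM, glmQLFit and glmQLFTest, no covariate), with Benjamini-Hochberg adjustment over 15646 genes. Genes were called at an adjusted p under 0.05, and separately with a fold change of at least 2. Levels are CPM after TMM, with the SD over 3 libraries, and standard errors are the log2 fold change divided by the square root of the F statistic. Ratios used counts plus 0.5 and exact permutation tests. The alternatives were RLE normalization, library size only, no filter, at least 10 counts in every library, DESeq2 1.42.0, limma-voom (limma 3.58.1), the replicate number as a block and each library left out, and for ratios a prior count of 5 and for levels the longest transcript.

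The genes, the lists (written from general knowledge) and the tests were chosen with earlier results of these data known. Besides the 10 genes, up to 6 called genes of each list were named by smallest p-value, with genes absent or filtered, and the 5 genes most like the one with the smallest p-value. Some list genes that this rule would name are not reported here. Counts without NPC1 and NPC2 were added after the values were seen. Other genes were named after their values were seen, as regulators, enzyme partners, markers or overlapping genes.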

Additional observations from a re-analysis of the deposited data

How the results depend on the processing

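The calls of UGCG and KDSR held under all 13 alternatives. The number of upregulated synthesis genes was 3 with RLE normalization, library size only, at least 10 counts in every library, DESeq2 and limma-voom, and 4 without a filter, where CERS6 was added (edgeR adjusted p = 0.0414). With one library left out it ranged from 2 to 5, with 5 without control replicate 3, which added CERS6 and SGMS1. The number of downregulated genes, 1 (DEGS1), was 0 with library size only and ranged from 0 to 1 with one library left out. The median log2 fold change of the 10 genes ranged from -0.02 (without control replicate 1) to 0.17 with one library left out.

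SGMS2 changed sign around 0, to 0.01 with library size only, and ranged from -0.13 to 0.07 with one library left out. The log2 ratio of CERS5 to CERS2 ranged from -0.20 to 0.03, where it changed sign without control replicate 1. The cause was not tested.

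Deviations of same-numbered libraries from their group means correlated at 0.0297, 0.116 and 0.392. Those of differently numbered libraries correlated between -0.38 and 0.32. Whether the replicate numbers pair the libraries was not tested further. With the replicate number as a block (replicate block), 4 synthesis genes were upregulated, CERS6 among them (0.36, edgeR adjusted p = 0.00116), and 1 was downregulated, while the calls over all genes went from 2047 to 4018. With one library left out, those calls ranged from 572 (without fluoxetine replicate 1) to 3633 (without control replicate 3). DESeq2 gave 1106 higher and 1140 lower calls over all genes, and edgeR without a filter 1393 and 1516, against 1214 and 833. Of the list counts, ceramide transport had 4 genes higher and 1 lower with the replicate block, and 1 higher and 0 lower without control replicate 1 or 2 or fluoxetine replicate 1 or 3. Non-lysosomal breakdown had 2 higher and 1 lower with the replicate block. ORMDL2 changed sign, to -0.06, without fluoxetine replicate 1. A prior count of 5 moved no ratio by more than the spread between replicates. With the longest transcript in place of merged exons, SPTLC1 stood at 38.4 CPM per kilobase in control, and CERS5 at 13.9 overlapped UGCG at 13.8. These limits rest on 3 libraries per group.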
